A study of Mus musculus with 2 samples.

Results

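The glutathione, thioredoxin and antioxidant enzyme genes described here are 38 of the 32285 genes counted in single cells of the mouse retinal pigment epithelium (RPE), the pigmented layer behind the photoreceptors. They were taken by gene symbol from a list of glutathione peroxidases, glutathione S-transferases, glutathione synthesis enzymes, thioredoxins, superoxide dismutases, catalase, peroxiredoxins, regulators of the transcription factor NRF2 and the selenium carrier Selenop, and each symbol matched 1 gene. The cells came from C57BL/6J male mice of 3 months, in which 1 µl of PBS (control) or 1 µl of doxorubicin (Dox) at 100 ng/µl had been injected under the retina 7 days earlier. Dox is a drug that damages DNA. After removal of the retina, the RPE, choroid and sclera of 10 eyes from 5 mice were dissociated and pooled, which gave a single library per condition, without replicates. Both conditions were injected, and drug and library, with any difference between the injections, cannot be told apart. By the study's account the injection of Dox affected only a part of the RPE.

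Glutathione, a thiol built by glutamate-cysteine ligase and glutathione synthetase, is spent by peroxidases on hydrogen peroxide and lipid peroxides, coupled by transferases to reactive aldehydes and drugs, and restored by glutathione reductase. Thioredoxin and the peroxiredoxins form a parallel route, and NRF2, held down by KEAP1, switches on many genes of both routes through the antioxidant response element. In the RPE this defence is known for its part against the light, the high oxygen supply and the oxidized lipids of the outer segments that RPE cells take up.

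The core of the antioxidant response element, TGACNNNGC on either strand, was searched in the 250 bases before the start of each gene in the RefSeq promoter table (build GRCm38.p6). It was present for 7 of the 32 members with an entry (Gclm, Gsta3, Gstm5, Mgst1, Nfe2l2, Prdx1 and Sod1), against 10.1% of all 27025 promoters in the table. The AP-1 site, TGANTCA, was present for 4 of the 32 (Gstm5, Gstp1, Prdx1 and Srxn1), against 6.87% of all promoters, and overlapped the core in Prdx1. The windows of Gsta3 and Gstm5, which were higher in the Serpina3n-high cells of the Dox library (defined in the next paragraph), and of Nqo1, which was lower there, are shown 5′ to 3′ on the strand of the gene, ending before the first base of the GENCODE gene, with the core in capitals. Gsta3 (ENSMUSG00000025934) spans 21240589 to 21265661 on chromosome 1, Gstm5 (ENSMUSG00000004032) 107895821 to 107898686 on chromosome 3 and Nqo1 (ENSMUSG00000003849) 107388225 to 107403206 on chromosome 8 of GRCm38. The windows lie at chr1:21240335-21240584 (plus strand), chr3:107895604-107895820 (plus strand) and chr8:107403207-107403455 (minus strand).
Gsta3: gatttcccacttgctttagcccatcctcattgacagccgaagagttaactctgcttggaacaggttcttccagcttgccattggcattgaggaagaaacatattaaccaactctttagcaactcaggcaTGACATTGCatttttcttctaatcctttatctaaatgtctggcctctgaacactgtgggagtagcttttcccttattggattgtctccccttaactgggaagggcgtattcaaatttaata
Gstm5: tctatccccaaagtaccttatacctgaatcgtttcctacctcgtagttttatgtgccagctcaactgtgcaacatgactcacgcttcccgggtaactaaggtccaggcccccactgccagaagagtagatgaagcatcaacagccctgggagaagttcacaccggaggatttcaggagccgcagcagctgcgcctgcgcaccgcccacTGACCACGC
Nqo1: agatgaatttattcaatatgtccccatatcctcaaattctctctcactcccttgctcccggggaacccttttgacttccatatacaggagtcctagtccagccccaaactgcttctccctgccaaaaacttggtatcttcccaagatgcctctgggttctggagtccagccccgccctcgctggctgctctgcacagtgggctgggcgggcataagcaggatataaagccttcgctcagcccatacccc
The core of Gsta3 (TGACATTGC) began 121 bases before the RefSeq start, and that of Gstm5 (TGACCACGC) began 42 bases before it. Gstm5 also held 1 AP-1 site farther upstream. The window of Nqo1 held neither motif, which says only that these letters were not in this stretch. Gpx1, Gpx4 and Sod2, also higher in the Serpina3n-high Dox cells, held no core either, and Hmox1, higher too, had no entry. Gstm2, Gpx3 and Txnip, lower there like Nqo1, held no core. Gclm, Mgst1, Nfe2l2, Prdx1 and Sod1 held the core but did not reach 1.5-fold there. Whether the core goes with these differences was not tested.

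The control library held 20381 cells and the Dox library 15649, with 117731270 and 103997248 unique molecular identifiers (UMIs, each a tag of 1 RNA molecule), and 441 cell barcodes occurred in both. RPE cells were those with at least 10 UMIs of Rpe65, the retinoid isomerase that marks the RPE, which gave 1526 cells in control and 1630 in Dox. At the limit, 34 control and 39 Dox cells held exactly 10 Rpe65 UMIs and 32 and 49 held 9. All 12 markers of a fixed RPE list were detected in both sets, with a summed level of 100597 and 101742 UMIs of 1000000 (CPM). That list includes Rpe65, by which the cells were chosen. Detection alone does not set RPE cells apart, since all 12 were also read in fibroblast-like cells (described in the next paragraph). The summed level of the list there was 3517.5 CPM in control and 5379 CPM in Dox. RPE cells were further split by Serpina3n, a secreted protease inhibitor, at 1000 CPM in the cell. This left 1511 Serpina3n-low and 15 Serpina3n-high control cells (0.983%, exact binomial interval 0.551 to 1.62), and 1422 low and 208 high Dox cells (12.8%, 11.2 to 14.5). The cells next to the limit had 997 and 1061 CPM in control and 994 and 1008 CPM in Dox. Rpe65 stood at 5008 CPM in low and 2544 CPM in high control cells, and at 5499 and 1954 CPM in Dox, and high cells had more UMIs (median 33954 against 15957 in control, 28244 against 16608 in Dox). Below, a level is the summed UMIs of a gene in CPM, and brackets give 95% intervals that cover counting error only. A difference is called when it reaches 1.5-fold with at least 50 UMIs over both groups. No test was possible with 1 library each. CPM of different genes are not compared.

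Across the tissue the members divided between the RPE and its neighbours. Clusters of the other kept cells, built without the members, carried markers of fibroblasts, melanocytes, myeloid cells, NK or T cells, smooth muscle, endothelium and Schwann cells. In both libraries, 8 members had their highest level in RPE cells, namely Gpx4, Gsta3, Gstm5, Gclm, Nqo1, Cat, Prdx2 and Prdx5. Another 8 were highest in melanocyte-like cells (Gpx3, Gsta4, Gstp1, Mgst1, Gclc, Txn1, Prdx1 and Selenop), 5 in myeloid-like cells (Gpx1, Gsto1, Gsr, Txnrd1 and Nfe2l2) and 4 in Schwann-like cells (Gpx8, Gss, Txnip and Prdx3). Gstm1, Gstm2 and Gstt1 were highest in fibroblast-like cells, Mgst3 and Sod3 in smooth muscle-like cells and Sod1 in endothelial-like cells. The highest group of the remaining 7 differed between the libraries. Among the members assigned outside the RPE, intervals of the highest and next group overlapped in both libraries for Gpx8, Gclc, Gss, Txn1 and Prdx3. They also overlapped for Sod1 in control and for Gstt1 in Dox. The Schwann-like group was small, with 72 cells in control and 33 in Dox. How all genes divided among the groups was not counted, so these numbers do not set the members apart from other genes.

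**Figure D1:**
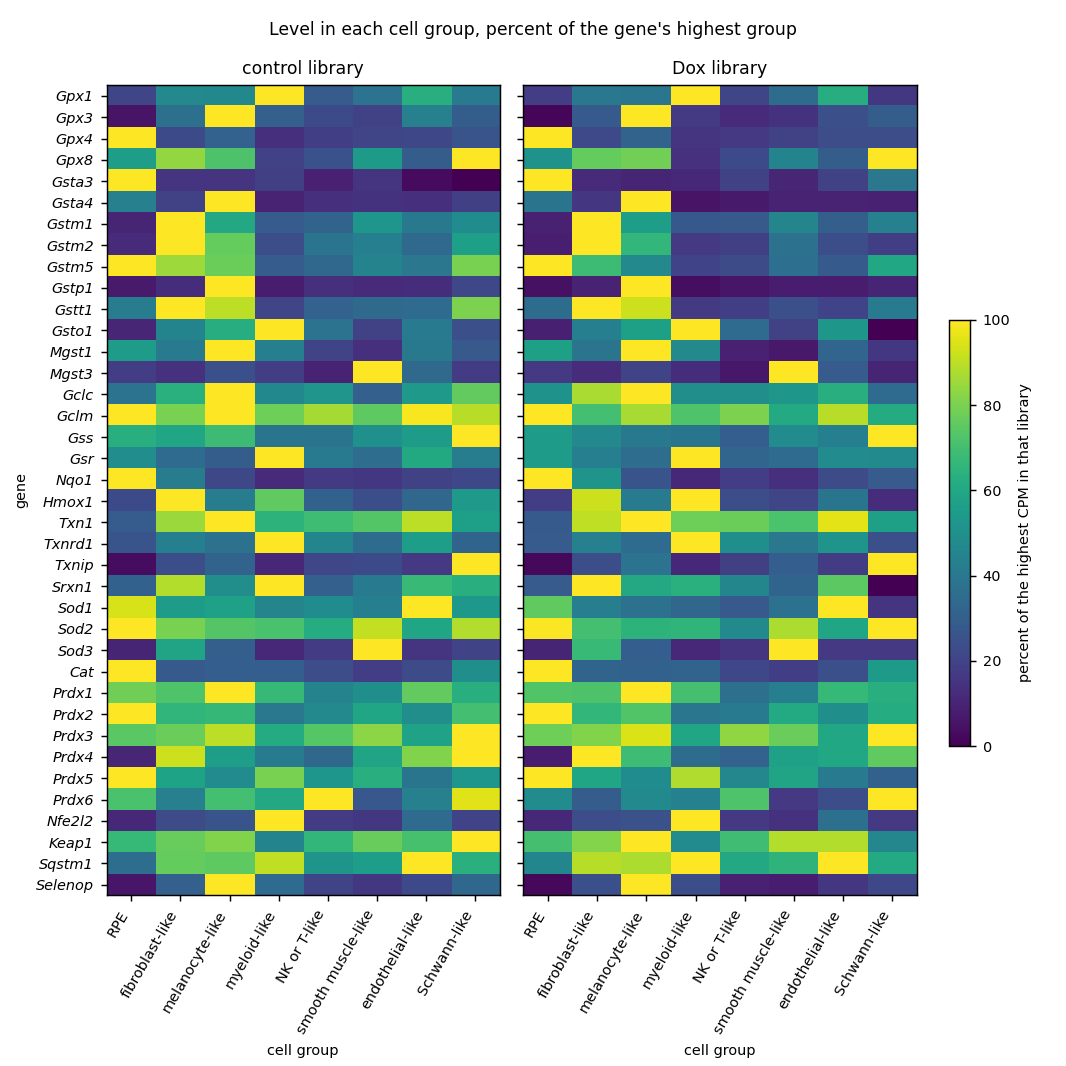
Level of each of the 38 genes (rows) in 8 cell groups (columns) of the control and Dox libraries, as a percent of the highest CPM of that gene in that library. Bright cells in the first column mark the genes that were highest in RPE cells, among them Gpx4, Nqo1 and Cat.

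The gap between RPE and other cells was wide for a few enzymes. Gpx4, which reduces lipid peroxides in membranes, stood at 5895 CPM in control RPE and at 826 to 1851 CPM in the other 7 groups, and at 6717 CPM against 1006 to 2149 CPM in Dox. Cat, the catalase of peroxisomes, stood at 347 CPM in control RPE and at 62.7 to 173 CPM elsewhere. Nqo1, a quinone reductase and textbook NRF2 target, stood at 231 CPM in control RPE, with the next level, 96.8 CPM, in fibroblast-like cells. For Gclm, the modifier subunit of glutamate-cysteine ligase, the groups barely differed, at 314 CPM [307 to 321] in control RPE and 314 CPM [300 to 329] in melanocyte-like cells. The 95% intervals of RPE cells and of the next group overlapped for Gclm in both libraries and for Gsta3 in Dox. At the other end, RPE cells had the lowest level of the 8 groups in both libraries for 10 members, which were Gpx3, Gstm1, Gstm2, Txn1, Txnip, Sod3, Prdx4, Nfe2l2, Sqstm1 and Selenop. The share of all genes that were lowest in RPE cells was not counted either. Rpe65 itself was read in every group, at 202 to 284 CPM in the other control groups and 258 to 536 CPM in the other Dox groups.

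In the RPE as a whole, few members differed between Dox and control. A ratio of at least 1.5-fold separated 4 of the 38. Gsta3 was higher, as 1.66% of the 12774 genes with enough UMIs were, and Gpx3, Gstp1 and Selenop were lower, as 4.92% of those genes were. The median log2 ratio, Dox over control, was -0.05 over the members and -0.01 over all genes. In Serpina3n-low cells alone no member was higher (1.05% of 12617 genes were) and the same 3 were lower (3.87%). In Serpina3n-high cells, where control gave only 15 cells, 1 member was higher and 9 were lower, beside 16.5% and 10.9% of 7669 genes, and Gpx3 and Gsto1 had too few UMIs. Of the 9, Gpx1, Gstm2, Gstp1, Mgst1, Hmox1 and Keap1 no longer reached 1.5-fold when the control cell with the most UMIs of the gene was left out, while Txnip, Prdx4 and Selenop still did. By the fold alone, without the minimum of UMIs, Prdx4 reached 1.5-fold in 13 of 13 other settings, which include that one. Selenop did so in 12 and Txnip in 11. After thinning, Txnip was under that minimum. Between high and low cells of the same library more members were called, and so were more of all genes. In Dox, 6 members were higher and 4 lower, beside 4.72% and 20.3% of 11662 genes, with a median of 0.12 over the members and -0.18 over all genes. In control, 9 were higher and 2 lower, beside 10.7% and 30.3% of 11582 genes, with medians of 0.29 and -0.19. Relative to the median of all genes, the counts were 10 higher and 3 lower in Dox, beside 7.81% and 13.4% of all genes, and 15 higher and 2 lower in control, beside 17% and 24.3%. The 5 comparisons use the same cells in part.

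**Figure D2:**
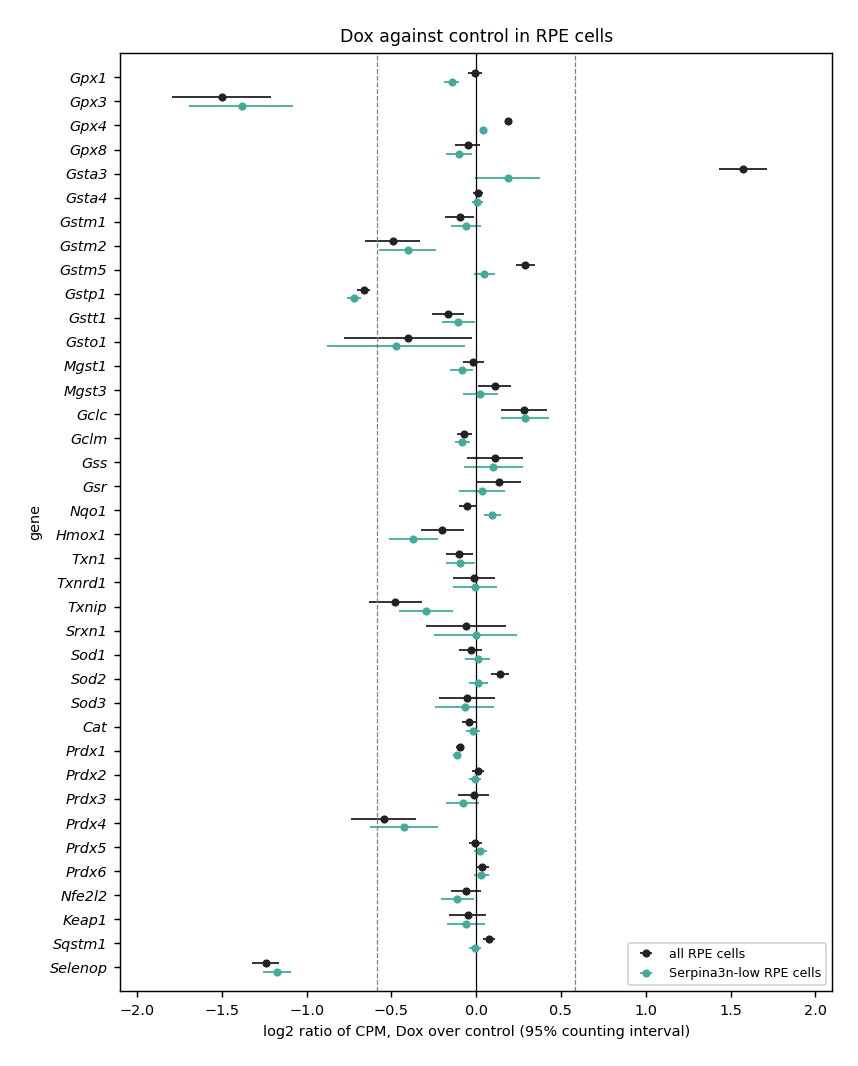
Log2 ratio of CPM, Dox over control, for each gene in all RPE cells (black) and in Serpina3n-low RPE cells (green), with 95% counting intervals and dashed lines at 1.5-fold. Gsta3 stands apart to the right only for all RPE cells, while Gpx3, Gstp1 and Selenop lie beyond the left line for both.

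Gsta3, a transferase of the alpha class, gave the largest ratio among the members. Control RPE held it at 20.3 CPM and Dox-RPE at 60.4 CPM (log2 ratio 1.57 [1.43 to 1.72]). Within Serpina3n-low cells the levels were 16.3 and 18.6 CPM (log2 ratio 0.19 [-0.01 to 0.38]). Within high cells they were 247 and 253 CPM (log2 ratio 0.03 [-0.25 to 0.32]). The level within each stratum was thus close between the libraries, while the share of high cells was 0.983% and 12.8%. High cells exceeded low cells by a log2 ratio of 3.92 [3.61 to 4.23] in control, and by 3.77 [3.62 to 3.92] in the Dox library. The study lists Gsta3 and Gpx4 together with Serpina3n among the markers of an RPE cluster in both conditions. Gsta3 was read in 14 of the 15 high control cells, from 0 to 935 CPM with a median of 169, and in 181 of the 208 high Dox cells, from 0 to 2441 CPM with a median of 202. After thinning each cell to 5000 UMIs, 50% of 14 high and 4.30% of 1326 low control cells held a Gsta3 UMI, and 67.7% of 195 high and 6.24% of 1233 low Dox cells. Of fibroblast-like cells, 1.05% of 5607 in control and 3.52% of 5476 in Dox did so. The unthinned shares were 93.3%, 13.8%, 87.0%, 16.7%, 1.37% and 4.03%, at median depths of 4624 and 5293 UMIs in fibroblast-like cells.

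The other transferases had smaller ratios, in both directions. Gstm5, of the mu class, stood at 153 CPM in low and 186 CPM in high control cells, and at 158 and 324 CPM in Dox. Its log2 ratio of high over low was 0.28 [-0.05 to 0.59] for the control library, against 1.04 [0.95 to 1.12] for Dox. Between the high cells of the libraries the log2 ratio, Dox over control, was 0.80 [0.49 to 1.14]. Mgst1, a transferase of membranes, stood at 139 and 298 CPM in low and high control cells, a log2 ratio of 1.10 [0.84 to 1.35], against 131 and 182 CPM in Dox (log2 ratio 0.47 [0.37 to 0.57]). The control ratio fell short of 1.5-fold, at 0.34, with the Serpina3n limit at 2000 CPM, and was 0.72 without 1 cell. Dox over control in high cells, Mgst1 had a log2 ratio of -0.71 [-0.97 to -0.44], which was -0.33 without 1 control cell and 0.02 at a limit of 2000 CPM, and it reached 1.5-fold in 8 of 13 other settings. Gstm2 was low in RPE cells, at 19.6 CPM in low and 12.6 CPM in high Dox cells, from 502 and 70 UMIs, and its log2 ratio of -0.64 [-1.02 to -0.28] turned to 0.13 when cells with the highest doublet scores were left out and stayed past 1.5-fold in 6 of 12 other settings. In the 15 high control cells Gstm2 had 9 UMIs, 4 of them in 1 cell, and the log2 ratio of Dox over control there was -0.66 [-1.67 to 0.53]. Gsta4, which clears lipid aldehydes and had the most UMIs among the transferases in RPE cells, stood at 599 CPM in control RPE and 603 CPM in Dox-RPE. Gstm1, Gstt1, Gsto1 and Mgst3 reached 1.5-fold in none of the 5 comparisons in which they had enough UMIs. The mu, alpha and pi classes hold near-identical gene copies, and how well reads were assigned among such copies was not tested.

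Gstp1 (ENSMUSG00000060803, chromosome 19, 4035407 to 4037985), the pi-class transferase, stood at 490.0 CPM in control RPE and 309 CPM in Dox-RPE, a log2 ratio of -0.66 [-0.70 to -0.63]. In low cells it stood at 489 and 297 CPM, with a log2 ratio of -0.72 [-0.76 to -0.68], and in high cells at 548 and 365 CPM, with a log2 ratio of -0.59 [-0.78 to -0.39]. The last value lay at the 1.5-fold limit and passed it under 3 of 13 other settings. Its copy Gstp2 was far sparser and also lower in Dox-RPE, at 3.99 and 0.897 CPM from 105 and 28 UMIs.

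Among the glutathione peroxidases, Gpx4 and Gpx1 were higher in the Serpina3n-high cells of both libraries. Gpx4 (ENSMUSG00000075706, chromosome 10, 80047166 to 80056439) stood at 5782 CPM in low and 12363 CPM in high control cells, and at 5939 and 10299 CPM in Dox. The log2 ratios were 1.10 [1.06 to 1.13] and 0.79 [0.78 to 0.81]. Gpx1, the peroxidase of the cytosol and mitochondria, stood at 350 and 903 CPM in control and at 317 and 545 CPM in Dox, with log2 ratios of 1.37 [1.22 to 1.51] and 0.78 [0.72 to 0.84]. All 15 high control cells held UMIs of both genes. Between the libraries, Gpx1 was lower in the high cells of Dox, with a log2 ratio of -0.73 [-0.88 to -0.58], and without the control cell that held the most Gpx1 UMIs it was -0.52. It reached 1.5-fold in 9 of 13 other settings and was smallest, at -0.28, with the limit at 2000 CPM. Gpx8, a peroxidase of the endoplasmic reticulum, stood at 107 CPM in control RPE and 103 CPM in Dox-RPE. Gpx3 was sparse, at 12.5 CPM (329 UMIs) in control RPE and 4.42 CPM (138 UMIs) in Dox-RPE, a log2 ratio of -1.50 [-1.80 to -1.21], and its log2 ratio within low cells was -1.38 [-1.69 to -1.08]. High over low, it was lower in Dox, at 2.52 against 4.84 CPM from 14 and 124 UMIs, a log2 ratio of -0.94 that was -0.29 without the highest doublet scores. In control the 3 UMIs of the high cells gave a log2 ratio of -0.93 [-3.21 to 0.63], which became 2.11 with the Serpina3n limit at 500 CPM.

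**Figure D3:**
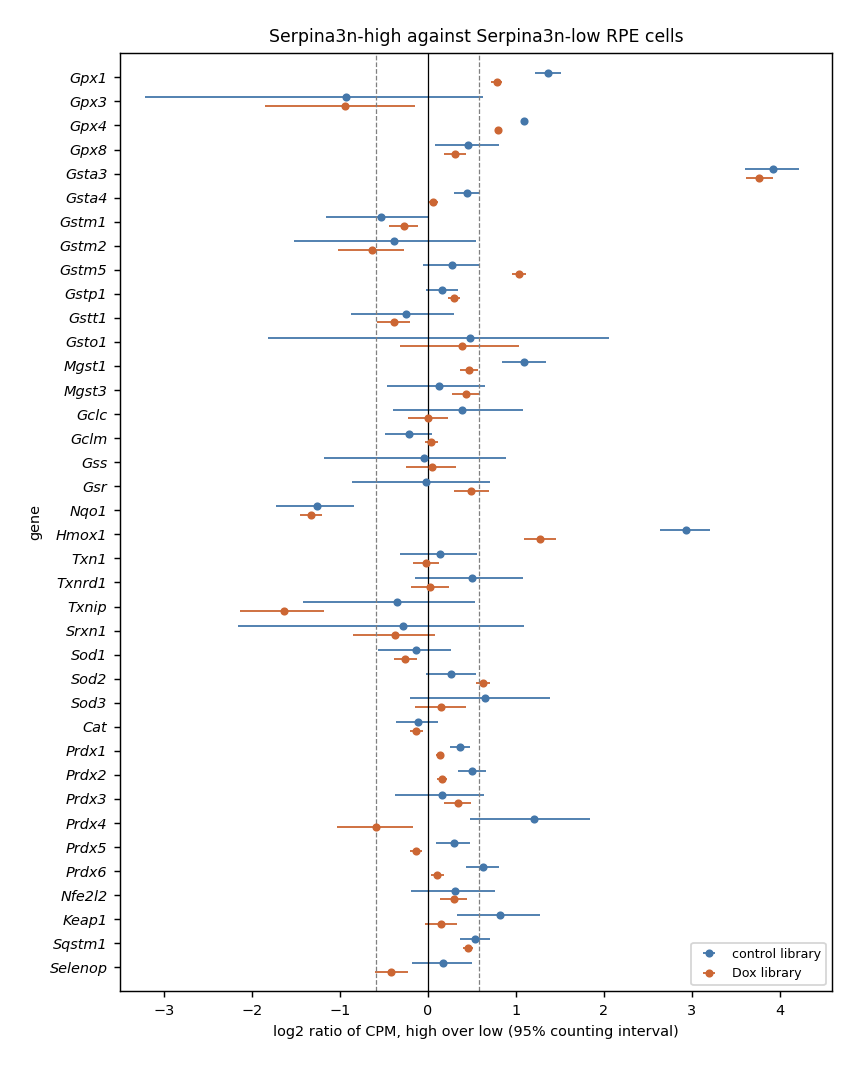
Log2 ratio of CPM, Serpina3n-high over Serpina3n-low RPE cells, for each gene in the control (blue) and Dox (orange) libraries, with 95% counting intervals and dashed lines at 1.5-fold. Gsta3 lies near 4 in both libraries, Gpx1 and Gpx4 beyond the right line and Nqo1 beyond the left line in both.

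The enzymes that build and restore glutathione stayed within 1.5-fold in all 5 comparisons. Gclc, the catalytic subunit of glutamate-cysteine ligase, stood at 28.8 CPM in control RPE and 35 CPM in Dox-RPE, a log2 ratio of 0.28 [0.15 to 0.42]. Gclm stood at 314 and 299 CPM. Gss, glutathione synthetase, stood at 20.5 and 22.1 CPM. Gsr, glutathione reductase, stood at 33.6 and 36.9 CPM, and in Dox at 34.4 CPM in low and 48.5 CPM in high cells, a log2 ratio of 0.50 [0.29 to 0.69].

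Nqo1, which reduces quinones, and Hmox1, which breaks down heme, are both known NRF2 targets and lay on opposite sides in high cells. Nqo1 stood at 233 CPM in low and 97.2 CPM in high control cells, a log2 ratio of -1.26 [-1.72 to -0.84]. In Dox it stood at 249 and 99.3 CPM, a log2 ratio of -1.33 [-1.45 to -1.20]. Nqo1 was therefore lower in the high cells of both libraries, and over all RPE cells the libraries were close, at 231 and 222 CPM. Hmox1, heme oxygenase, stood at 27.1 CPM in low and 65.8 CPM in high Dox cells, a log2 ratio of 1.28 [1.09 to 1.46]. In control it stood at 35 and 267 CPM, but 91 of the 121 UMIs of the 15 high cells came from 1 cell, and without that cell the level was 70.2 CPM. The log2 ratio of high over low in control was 2.93 [2.65 to 3.21] with it and 1.0 without it. Between the high cells, Dox over control, it was -2.02 [-2.32 to -1.71] with it and -0.09 without it, and it also fell short of 1.5-fold without the highest doublet scores (-0.33) and at a limit of 2000 CPM (-0.15).

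In the thioredoxin system, Txn1 and its reductase Txnrd1 stayed within 1.5-fold in all 5 comparisons, and so did sulfiredoxin, Srxn1, which repairs peroxiredoxins. Txn1 stood at 90.4 CPM in control RPE and 84.4 CPM in Dox-RPE. Txnip, the inhibitor that binds thioredoxin, stood at 22.9 CPM in low and 7.37 CPM in high Dox cells, from 588 and 41 UMIs, a log2 ratio of -1.64 [-2.13 to -1.18]. In control it stood at 28.2 and 22.1 CPM, the latter from 10 UMIs with 5 in 1 cell, a log2 ratio of -0.35 [-1.42 to 0.54]. Dox over control, the high cells differed by a log2 ratio of -1.58 [-2.61 to -0.42], which was -0.65 without 1 control cell. It no longer reached 1.5-fold without the highest doublet scores (-0.34) or with Rpe65 also at 1000 CPM (-0.37). Txnip was at 28.0 CPM in control RPE and 96.2 to 845 CPM in the other control groups. Of the 4 members lower in high than in low Dox cells, Gstm2, Gpx3 and Txnip had higher levels in every other cell group than in RPE cells. The fourth, Nqo1, was highest in RPE cells. The summed level of the 12 fibroblast markers was 1253 CPM in low and 421 CPM in high Dox cells (12 and 10 of the markers were read). In control it was 1783 and 1831 CPM (12 and 10 read). The part of other cells' RNA in these differences was not tested.

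Of the superoxide dismutases and catalase, Sod2 in Dox and Sod3 in control reached 1.5-fold, each between high and low cells. Sod2, the dismutase of mitochondria, stood at 196 CPM in low and 303 CPM in high Dox cells, a log2 ratio of 0.63 [0.55 to 0.71], and at 194 and 234 CPM in control, a log2 ratio of 0.27 [-0.02 to 0.55]. Sod1, of the cytosol, stood at 121 CPM in control RPE and 118 CPM in Dox-RPE. Sod3, the secreted form, stood at 21.1 and 33.1 CPM in low and high control cells, the latter from 15 UMIs. Its log2 ratio there was 0.65 [-0.20 to 1.38], 0.33 without the cell that held the most, and -0.86 after thinning, and it reached 1.5-fold in 8 of 13 other settings. Cat stood at 347 CPM in control RPE and 337 CPM in Dox-RPE, and within 1.5-fold in all 5 comparisons.

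Of the 6 peroxiredoxins, Prdx1, Prdx2, Prdx3 and Prdx5 stayed within 1.5-fold in all 5 comparisons. Prdx1, a cytosolic form with the most UMIs in RPE cells of the 6, stood at 1019 CPM in control RPE and 955 CPM in Dox-RPE. Prdx4, the form of the endoplasmic reticulum, stood at 19.6 CPM in control RPE and 13.4 CPM in Dox-RPE, a log2 ratio of -0.55 [-0.74 to -0.36]. In control its level was 19.2 CPM in low and 44.2 CPM in high cells, from 20 UMIs in 7 of 15 cells, and in Dox it was 14.3 and 9.52 CPM. The log2 ratio of high over low was 1.20 [0.48 to 1.85] for control and -0.58 [-1.03 to -0.17] for Dox, and that of Dox over control in high cells was -2.21 [-2.98 to -1.39]. Fibroblast-like cells of control held Prdx4 at 166 CPM. The summed level of the fibroblast markers was 1831 CPM in high control and 421 CPM in high Dox cells. Without the highest doublet scores, the Prdx4 log2 ratio of high over low in control was 2.01. That of Dox over control in high cells was then -2.28. The part of other cells' RNA in the Prdx4 ratios was not tested. Prdx6, which also acts on phospholipid peroxides, stood at 343 CPM in low and 528 CPM in high control cells, a log2 ratio of 0.62 [0.43 to 0.81] that was 0.53 without the high cell with the most UMIs and reached 1.5-fold in 8 of 13 other settings, against 350 and 377 CPM in Dox (log2 ratio 0.11 [0.04 to 0.18]).

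Among the NRF2 regulators, Nfe2l2 and Sqstm1 stayed within 1.5-fold in all 5 comparisons. Nfe2l2, which encodes NRF2, stood at 70.1 CPM in control RPE and 67.2 CPM in Dox-RPE, and Sqstm1, an autophagy adaptor that binds KEAP1, at 440 and 464 CPM. Keap1 stood at 50 CPM in low and 88.3 CPM in high control cells, from 40 UMIs in the latter, a log2 ratio of 0.82 [0.33 to 1.27]. In Dox it stood at 48.0 and 53.4 CPM, a log2 ratio of 0.15 [-0.03 to 0.34]. Dox over control in high cells, it was -0.73 [-1.21 to -0.21], and -0.57 without 1 control cell, and it reached 1.5-fold in 10 of 13 other settings.

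When RPE cells were ordered by their Serpina3n level, Gsta3 already differed between cells below the limit of 1000 CPM. Gsta3 stood in Dox at 9.24 CPM in cells without a Serpina3n UMI, then at 14.1, 22.0, 130.4, 219 and 265 CPM with the bounds at 100, 300, 1000 and 3000 CPM. In control it stood at 10.5, 26.6, 39.8, 108, 247 and 247 CPM, the last 2 values from 9 and 6 cells. Gpx4 ran from 5543 to 14279 CPM in control and from 5725 to 10535 CPM in Dox with a low of 4463 CPM between the bounds of 100 and 300 CPM, and Nqo1 from 241 to 96.6 CPM and from 261 to 91.8 CPM. Depth was uneven along this order, with a median of 8610 and 5999 UMIs in the Dox bins from 100 to 300 and from 300 to 1000 CPM and 28992 in the last, and its part in these levels was not tested here.

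**Figure D4:**
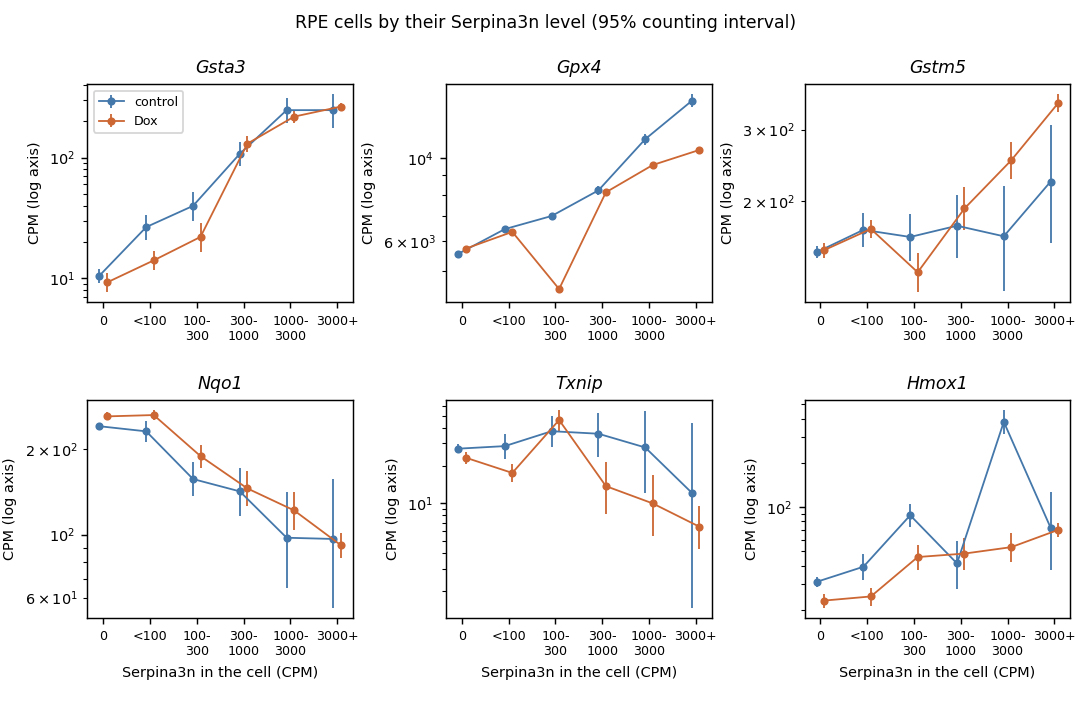
Level of 6 genes in CPM (log axis) in RPE cells grouped by their own Serpina3n level, in the control (blue) and Dox (orange) libraries, with 95% counting intervals. Gsta3 and Gpx4 are higher and Nqo1 is lower at the right of the axis in both libraries, and the control peak of Hmox1 in the fifth bin rests on 1 cell.

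Selenop (ENSMUSG00000064373, chromosome 15, 3268547 to 3280508), the secreted protein that carries selenium between tissues, was lower in Dox-RPE. The study also reported it as lower after Dox, from these same libraries. Control RPE held it at 148 CPM (3889 UMIs) and Dox-RPE at 62.5 CPM (1949 UMIs), with a log2 ratio of -1.24 [-1.32 to -1.16]. In low cells it stood at 147 and 65.4 CPM, a log2 ratio of -1.17 [-1.26 to -1.09]. In high cells it stood at 166 and 49.0 CPM, a log2 ratio of -1.76 [-2.13 to -1.37], where 1 control cell gave 36 of 75 UMIs and the ratio without it was -0.88. With the Serpina3n limit at 2000 CPM it was -0.06, and it reached 1.5-fold in the other 12 settings. Selenop was also lower in the NK or T-like cells of Dox, at 509 and 241 CPM, and in smooth muscle-like cells, at 404 and 218 CPM, with log2 ratios of -1.08 [-1.26 to -0.90] and -0.89 [-1.04 to -0.75]. In fibroblast-like, myeloid-like, endothelial-like and Schwann-like cells it was lower by less than 1.5-fold. The log2 ratios there were -0.23, -0.44, -0.38 and -0.51, each with an interval below 0. In melanocyte-like cells, where it was highest, it stood at 2494 and 2682.5 CPM, a log2 ratio of 0.11 [0.05 to 0.16].

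Gstp1 and Gpx3 had a like pattern over the cell groups. Gstp1 was lower in Dox in 5 of the other 7 groups, with log2 ratios from -1.22 in myeloid-like and NK or T-like cells to -0.59 in smooth muscle-like cells, while fibroblast-like cells stood at -0.50 and melanocyte-like cells, with 6947 and 6672 CPM, at -0.06. Gpx3 was lower in myeloid-like, NK or T-like and endothelial-like cells, with log2 ratios of -0.78, -0.84 and -0.77, and stood at 0.07 [-0.10 to 0.25] in melanocyte-like cells. Counted over all members, 4 were lower in myeloid-like cells (7.62% of 9525 genes were), 7 in NK or T-like cells (6.42% of 7293), 3 in smooth muscle-like cells (4.01% of 9303), 3 in endothelial-like cells (5.23% of 6731), 5 of the 18 members with enough UMIs in Schwann-like cells (11.2% of 1312) and none in fibroblast-like or melanocyte-like cells (3.06% of 14170 and 4.15% of 9918). Beside Gstp1 these were Gpx3, Gsta4 and Srxn1 in myeloid-like cells, Gpx3, Gsta4, Gstm2, Gstt1, Mgst1 and Selenop in NK or T-like cells, Mgst1 and Selenop in smooth muscle-like cells, Gpx3 and Gstt1 in endothelial-like cells, and Gpx1, Gsta4, Gclm and Prdx5 in Schwann-like cells. Higher members were Gsta3 in fibroblast-like cells (1.41% of genes), Gclc in smooth muscle-like cells (3.03%) and Prdx6 in Schwann-like cells (9.38%), and none in the melanocyte-like, myeloid-like, NK or T-like and endothelial-like groups (3.85%, 2.28%, 3.5% and 4.15%). In fibroblast-like cells Gsta3 stood at 3.08 and 7.55 CPM, and Serpina3n at 59.2 and 134.6 CPM. Serpina3n was also higher in Dox in each of the other groups outside the RPE. It stood there at 16.7 to 101 CPM in control and 94.6 to 150 CPM in Dox. Rpe65 was read in fibroblast-like cells at 202 and 276 CPM, and the part of RPE RNA in their Gsta3 level was not tested.

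**Figure D5:**
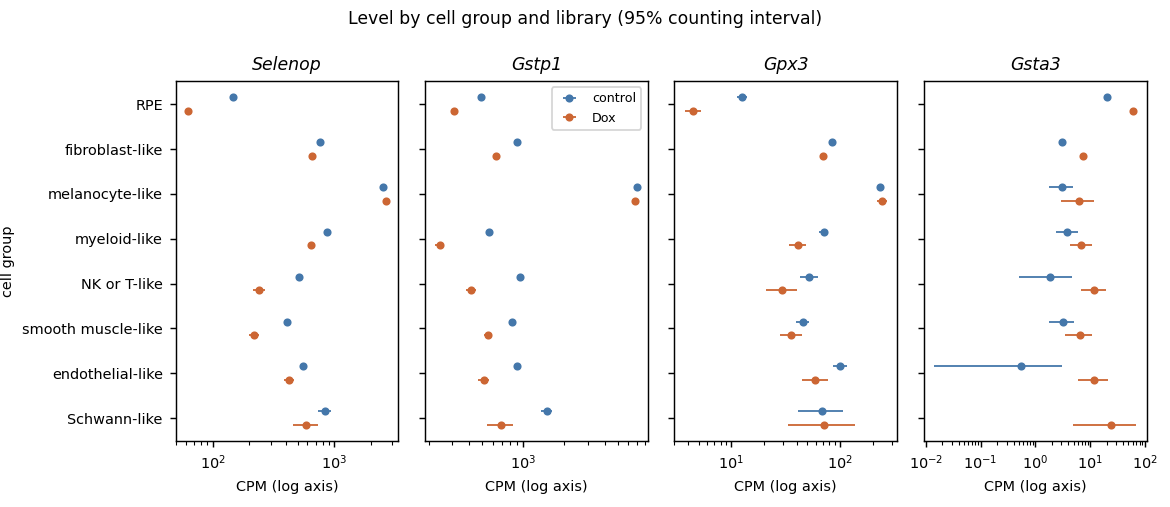
Level in CPM (log axis) of Selenop, Gstp1, Gpx3 and Gsta3 in 8 cell groups of the control (blue) and Dox (orange) libraries, with 95% counting intervals. For Selenop, Gstp1 and Gpx3 the orange points lie to the left in RPE cells and close to the blue points in melanocyte-like cells, and no point is drawn where a gene had no UMI.

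The summed levels of fibroblast and myeloid markers in RPE cells were also lower in Dox, while that of melanocyte markers, led by Ptgds, was close. In RPE cells the summed level of the 12 fibroblast markers was 1784 CPM in control and 1105 CPM in Dox, that of the 12 myeloid markers 390 and 181 CPM, and that of the 12 melanocyte markers 74902 and 72214 CPM, most of it from Ptgds. The study lists Ptgds among the markers of an RPE cluster, so the melanocyte sum in RPE cells does not measure RNA of melanocytes. Outside the RPE that sum was lower in Dox in every group but melanocyte-like cells. It was 5340 and 4400 CPM in fibroblast-like cells, and 59039 and 60981 CPM in melanocyte-like cells. All 12 markers of each of these 3 lists were read in RPE cells of both libraries. Pmel, a melanosome protein on the melanocyte list, stood at 298 and 63.7 CPM and Ednrb, also on that list, at 45.4 and 11.1 CPM. Both were reported as lower by the study, and the levels of the other melanocyte markers are not given here. Melanocyte-like cells made up 5.53% of the kept control cells and 2.04% of the kept Dox cells. Among those with the highest doublet scores were 21.8% of control RPE cells and 11.6% of Dox-RPE cells. By stratum they were 26.7% of the 15 high cells and 21.8% of the low cells in control. In Dox they were 2.88% of the 208 high cells and 12.9% of the low cells. The share so marked was set beforehand, at 16.1% of kept control cells and 12.3% of kept Dox cells. The scoring tool's own threshold marked 9.62% and 16.4% of them. Without the cells of highest doublet scores, the log2 ratios of Dox over control were -1.32 for Selenop, -0.61 for Gstp1 and -1.58 for Gpx3. The part of other cells' RNA in these ratios was not tested.

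Of 87 further genes of the same pathways, taken from a fixed list of transferases, glutaredoxins, NADPH suppliers, NRF2 targets and other defence genes, 81 had enough UMIs in RPE cells. Sesn2 and Trp53inp1, both with known antioxidant roles, were higher in Dox-RPE, at 5.97 and 10.2 CPM and at 3.57 and 5.90 CPM. Gstp2 and Ggt5 were lower, leaving 77 within 1.5-fold. These 2 and 2 are 2.47% of the list each way, beside 1.66% higher and 4.92% lower over all genes. In high against low Dox cells, 3 of 78 were higher and 6 lower, beside 4.72% and 20.3% of all genes. Ephx1, an epoxide hydrolase, stood at 185 CPM in low and 391 CPM in high cells, a log2 ratio of 1.08 [1.01 to 1.16], and Sesn2 and Trp53inp1 were the other 2. The 6 lower genes were Mafk, a partner of NRF2, with Abcc4, Nxn, Ggt1, Gstt3 and Sesn3, with log2 ratios from -1.43 to -0.62.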

How the data were processed

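Libraries were made with the 10x Genomics 5′ kit, and Cell Ranger (4.0.0 in the file header) was run by the authors with mm10 as the genome. The deposited values are raw counts of UMIs per gene and cell. With Python 3.11.15, a cell was kept if it had more than 500 UMIs, between 200 and 6000 genes, a ratio of log10 genes to log10 UMIs over 0.8 and less than 0.2 of its UMIs from mitochondrial genes (20180 control and 15426 Dox cells). Kept cells were clustered by Leiden (leidenalg 0.10.2, 30 components, 20 neighbours) on 2000 features without the members and Serpina3n, at a resolution of 0.3 that was chosen after others had been seen. Of the 11 clusters, 10 were named from fixed marker lists, and 1 led by hemoglobin genes, with medians of 854 and 729.5 UMIs, was not compared. Cells with at least 10 Rpe65 UMIs were taken out of the other groups.

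UMIs were summed per group and given per 1000000 UMIs, with exact Poisson intervals (scipy 1.17.1), and ratios have exact conditional binomial intervals. With 1 library per condition no test was made. The step from counts to ratios was tested on simulated data. Doublets were scored with Scrublet (scanpy 1.11.5) at an expected 16.1% and 12.3%, and were kept in the main results. The members, the pathway list and the markers were chosen with earlier results of these data known. Members past 1.5-fold in RPE cells, and the member of each role with the most UMIs in RPE cells, are given in full, and others by levels or counts. Promoters came from RefSeq and gene models from GENCODE vM21 (GRCm38), whereas the annotation version behind the files is not given in the sources used here. Of the promoter windows of members, 37 of 41 matched a GENCODE transcript start.

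Alternatives changed the definition of RPE cells (Rpe65 at 1000 CPM or more, membership of the RPE-like cluster, 20 Rpe65 UMIs), the cell filter (mitochondrial share under 0.1, none, highest doublet scores left out), the scale (no mitochondrial genes, averaged CPM of single cells, thinning to 5000 UMIs, centring), the minimum (200 UMIs, or 1 UMI in each group), the fold (2-fold) and the Serpina3n limit (500 and 2000 CPM). Leaving out the Serpina3n-high control cell with the most UMIs of a gene was chosen after seeing the data.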

Additional observations from a re-analysis of the deposited data

How the results depend on the processing

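Of 808 log2 ratios of single members under other settings, 667 stayed within the counting interval of the reported value. Of the 468 of ratios past 1.5-fold, 105 moved outside it with the same sign and 6 reversed, and of the 340 of ratios under 1.5-fold, 25 turned sign. Gsta3, Gpx3, Gstp1 and Selenop stayed past 1.5-fold between Dox-RPE and control RPE under all 10 settings tried for a single gene. Of the counts, members lower in Dox-RPE were 5 with at least 20 Rpe65 UMIs. Between the Serpina3n-high cells, the 1 higher member became 2 in the RPE-like cluster, with 20 Rpe65 UMIs, with the mean of the cells' CPM and with the Serpina3n limit at 500 CPM, 3 without the highest doublet scores, 4 at a limit of 2000 CPM and 0 at 2-fold, and the 9 lower became 5 with Rpe65 at 1000 CPM or without the highest doublet scores and 4 after thinning or at 2-fold. In high against low Dox cells, 6 higher became 3 and 4 lower became 2 at 2-fold, 4 lower became 2 without the highest doublet scores and 8 after thinning, and centring on the median of all genes gave 10 higher and 3 lower. In control, centring gave 15 higher and 2 lower, and the 2 lower became 6 with Rpe65 at 1000 CPM, 4 in the RPE-like cluster, with 20 Rpe65 UMIs, without the highest doublet scores or with the mean of the cells' CPM, 8 after thinning, 7 at a limit of 2000 CPM and 1 at 500 CPM or at 2-fold.

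The ratios past 1.5-fold that reversed were those of Gpx3 in high against low control cells (2.11 at a limit of 500 CPM), Gstm2 between the high cells (1.07 without the highest doublet scores, 0.0919 without 1 control cell) and in high against low Dox cells (0.13 without the highest doublet scores), Mgst1 between the high cells (0.0247 at a limit of 2000 CPM) and Sod3 in high against low control cells (-0.86 after thinning). The cause was not tested. With 1 library per condition no replicate could be left out, and the 15 high control cells limit what the high cells can show. The level by cell group has no value without the filter on cells. No paired analysis was possible because each condition had 1 library and no test was made.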
